A study of Mus musculus with 12 samples.

Results

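The genes described here are those whose symbol begins with Nduf, the name given to the nuclear-encoded subunits of mitochondrial complex I and to a group of its assembly factors. They were taken from an expression array study of ageing in the mouse cochlea. The mice were C57BL6j, an inbred strain that loses its hearing early, and were 4, 15 or 45 weeks old. The array annotation named 68 probes of 44 such genes, among 45281 probes and 19057 named genes in all. Where a gene had several probes, the probe with the highest mean level stood for the gene. Of the 44 genes, 34 encode complex I subunits, 8 are the assembly factors Ndufaf1 to Ndufaf8, and 2 carry the name without being subunits today. Those 2 are Ndufa4, now counted as a subunit of complex IV, and Ndufs5-ps, a pseudogene. Some further genes of the family, among them Ndufs5, Ndufb1 and Ndufa4l2, were not analysed here.

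Mice were kept under ordinary laboratory conditions, untreated, until the chosen age, and the cochlea was freed of the vestibular organs before RNA was extracted. Each age was represented by 2 pools of 5, named a and b, and the sources used here do not say if these were 5 cochleae or 5 mice. Each pool was read on 2 arrays, which gave 12 arrays, with pools taken as replicates (2 at each age). Nothing in the labels says more about the sex, litter or housing of the pools, so that p-values measure only the spread between these pools.

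Complex I, or NADH:ubiquinone oxidoreductase, is the entry point of electrons into the respiratory chain. Its matrix arm takes electrons from NADH and passes them along iron-sulfur clusters to ubiquinone, and its membrane arm pumps protons. Core subunits, which do this chemistry, are encoded partly in the nucleus and partly in mitochondrial DNA, while accessory subunits surround and stabilise them, and assembly factors help to build the enzyme without staying in it. In the cochlea the stria vascularis, which maintains the potential of the inner ear fluid, and the sensory hair cells are known for a high demand for respiration.

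Promoters of 4 subunit genes are shown because these genes stand for the patterns described below. Ndufb7 had the largest difference between 45 and 15 weeks, Ndufb4 and Ndufa11 were also high at 45 weeks and hold a motif of a known regulator of respiratory genes, and Ndufv1 ran the other way. The sequences are the 250 bases before the gene start in RefSeq on GRCm38.p6, each on the strand of its gene, written from 5′ to 3′. Capitals mark a match to AAGGTCA, the motif of the estrogen-related receptors (ERR), in Ndufb4, and overlapping matches on both strands to GCGCATGCG, the motif of nuclear respiratory factor 1 (NRF1), in Ndufa11.
Ndufb7, chr8:83566508-83566757, plus strand: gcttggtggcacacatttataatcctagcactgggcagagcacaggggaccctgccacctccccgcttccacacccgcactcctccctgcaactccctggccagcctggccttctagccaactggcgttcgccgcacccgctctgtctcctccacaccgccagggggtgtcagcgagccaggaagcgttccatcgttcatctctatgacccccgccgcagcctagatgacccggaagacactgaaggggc
Ndufb4, chr16:37654369-37654618, minus strand: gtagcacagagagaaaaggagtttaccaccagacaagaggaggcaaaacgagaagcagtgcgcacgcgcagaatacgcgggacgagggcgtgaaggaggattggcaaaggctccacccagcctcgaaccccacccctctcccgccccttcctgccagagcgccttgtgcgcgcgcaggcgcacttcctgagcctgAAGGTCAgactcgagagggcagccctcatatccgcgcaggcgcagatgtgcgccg
Ndufa11, chr17:56717512-56717761, plus strand: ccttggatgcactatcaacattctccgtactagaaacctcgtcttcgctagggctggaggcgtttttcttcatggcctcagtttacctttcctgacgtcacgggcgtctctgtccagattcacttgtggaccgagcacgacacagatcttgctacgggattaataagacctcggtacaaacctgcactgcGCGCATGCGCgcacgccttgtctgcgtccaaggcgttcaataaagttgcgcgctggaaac
Ndufv1, chr19:4012756-4013005, minus strand: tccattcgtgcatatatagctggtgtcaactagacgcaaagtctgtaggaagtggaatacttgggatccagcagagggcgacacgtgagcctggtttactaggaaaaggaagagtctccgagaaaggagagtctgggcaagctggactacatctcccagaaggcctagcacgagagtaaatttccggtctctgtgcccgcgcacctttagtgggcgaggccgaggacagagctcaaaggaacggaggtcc

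RefSeq windows of 300 bases, from 250 before to 50 after the start, were found for 39 of the 44 genes, and 4 motifs were searched on both strands. The YY1 motif AAGATGGCG lay in the windows of 6 genes (Ndufa9, Ndufaf8, Ndufc1, Ndufs4, Ndufs6 and Ndufs7), which is 15.4% of the 39, beside 1.4% of 32851 windows of all genes. The NRF1 motif lay in 4 (Ndufa11, Ndufa8, Ndufaf4 and Ndufaf5), which is 10.3% beside 1.75%. The ERR motif lay in 2 (Ndufb2 and Ndufb4), which is 5.1% beside 4.72%, and the GABPA motif CCGGAAGT in 1 (Ndufs3), which is 2.6% beside 3.89%. Such matches describe letters in a window. They show no binding, and the genes that share a motif did not share a size of difference: among the 6 with the YY1 motif, the difference between 45 and 15 weeks ran from 0.04 for Ndufs6 to 0.53 for Ndufaf8.

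Levels are on the authors' normalized log2 scale, and every difference is the mean of the older pools minus the mean of the younger pools on that scale. The authors had given all 12 arrays the same distribution (median 5.885, range 5.104 to 14.996), so that each difference is relative to the other transcripts on the array. A probe's level depends on its sequence as well as on its transcript, and levels of different genes are not compared. Of the 45281 probes, 22640 had a mean above 5.87 and were tested with limma, and a Benjamini-Hochberg adjusted p under 0.05 was called. Of the 44 genes, 42 passed this filter on level. Ndufs1, a core subunit with several iron-sulfur clusters, and the assembly factor Ndufaf6 did not.

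Arrays of the same pool correlated across probes at r between 0.983 and 0.997, with medians of 0.978 for different pools of the same age and 0.977 for different ages. Xist, the transcript of the inactive X chromosome, was high in pool b of 4 weeks, at 8.56, and pool b of 45 weeks, at 7.60, while the other 4 pools stayed between 5.85 and 5.95. The Y-linked Eif2s3y lay at 5.53 and 5.65 in those same pools and between 9.54 and 9.81 in the others. Results are therefore also given without these pools. The labelled tissue was checked on 12 cochlea markers, of which 11 passed the filter on level. Coch, which encodes cochlin, ran from 12.71 to 12.83 over the 6 pools and the connexin gene Gjb2 from 12.64 to 13.06, while Kcnq1, a potassium channel gene of the stria vascularis, lay under the filter. Of 8 hair cell markers 5 passed, and Slc26a5 (prestin), Pou4f3 and Strc did not.

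At 45 weeks most complex I subunit transcripts lay above their level at 15 weeks, by a small amount each. Of the 34 subunits 32 had a higher mean at 45 weeks, with a median difference of 0.288 (1.22-fold) and a range from -0.16 to 0.72. Over all 22640 probes tested the median difference was -0.003 and 11180 were higher. In 25 subunits both 45-week pools lay above both 15-week pools, beside 19.8% of all probes tested, and in 1 subunit, Ndufv1, both lay below, beside 19.9%. No single member passed the adjusted threshold in limma: 0 of the 42 tested were called, as were 0.0% of all probes, and the smallest adjusted p of a member was 0.606. At an unadjusted p under 0.05, 10 of the 33 subunits tested were higher and 0 lower, beside 8.15% of all probes in either direction. Both that count and the count over all probes fell without pool a or b of 15 weeks, and without pool b of 45 weeks. Each of these leaves 1 pool at an age. Without both pools of high Xist level the median difference was 0.211. The median difference stayed between 0.211 and 0.394 when each pool was left out in turn.

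The mean over the 34 subunits gives the same picture pool by pool. It was 10.92 and 11.11 in pools a and b at 4 weeks, 10.95 and 11.06 at 15 weeks, and 11.23 and 11.35 at 45 weeks. Both 45-week pools were the highest, and the 4- and 15-week pools overlapped. The SD of pools within an age was 0.101. The single arrays kept this order, with 45-week arrays between 11.22 and 11.35, 15-week arrays between 10.94 and 11.13 and 4-week arrays between 10.92 and 11.13. In 19 subunits both 45-week pools lay above all 4 younger pools, beside 13.15% of all probes tested. In 15 subunits every 45-week array lay above every 15-week array, as in 4.66% of all probes, and in 0 every 45-week array lay below.

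**Figure D1:**
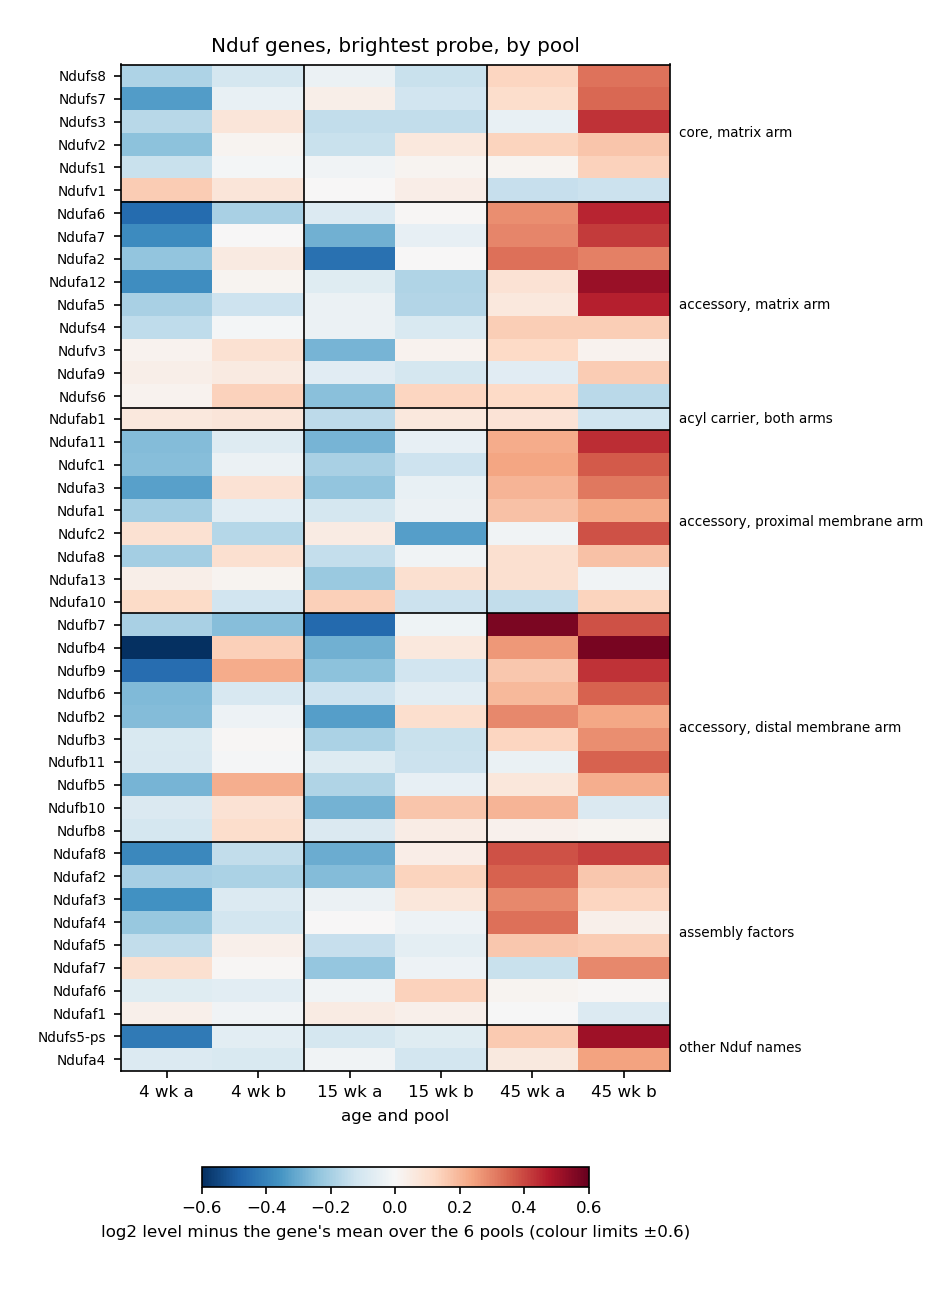
Level of each of the 44 Nduf genes (rows, grouped by place in the enzyme) in each of the 6 pools (columns, by age), as the log2 level of its brightest probe minus the gene's mean over the pools, with colours cut at 0.6 either way. The 2 columns of 45 weeks are above the mean in most rows, Ndufv1 is the row of subunits that runs the other way, and rows such as Ndufa10, Ndufs6 and Ndufb8 show no order by age.

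Core subunits of the matrix arm differed least among the groups of several subunits. Their median difference was 0.225 between 45 and 15 weeks over the 6 that had a probe, of which 5 passed the filter. Ndufs8, which carries iron-sulfur clusters close to the ubiquinone site, lay at 11.31 and 11.39 at 4 weeks, 11.46 and 11.36 at 15 weeks and 11.62 and 11.82 at 45 weeks in pools a and b. Both 45-week pools were above all younger pools, with a difference from 15 weeks of 0.31 (SE 0.12). Ndufs7, which holds the last cluster before ubiquinone, lay at 11.59 and 11.88 at 4 weeks, 11.96 and 11.81 at 15 weeks and 12.03 and 12.27 at 45 weeks, a difference from 15 weeks of 0.26 (SE 0.15) that was 0.14 without pool b of 45 weeks. For Ndufs3, a core subunit around which the ubiquinone module is built, the levels were 10.65 and 10.89 at 4 weeks, 10.67 and 10.67 at 15 weeks and 10.77 and 11.25 at 45 weeks. Its difference from 15 weeks was 0.34 (SE 0.18) and was 0.098 without pool b of 45 weeks and 0.582 without pool a of that age, whose level was inside the range of the 4-week pools.

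The core subunits at the NADH end of the arm lay on different sides of 0. Ndufv1 binds the flavin that takes up electrons from NADH, and Ndufv2 sits beside it with a cluster of its own. Ndufv1 lay at 12.30 and 12.22 at 4 weeks, 12.15 and 12.19 at 15 weeks and 12.01 and 12.02 at 45 weeks. It was the subunit with its lowest pools at 45 weeks and highest pools at 4 weeks, without overlap between ages. The difference was -0.16 (SE 0.11) between 45 and 15 weeks and -0.25 (SE 0.11) between 45 and 4 weeks, with an adjusted p of 0.383 in limma for the second. Ndufv2 lay at 11.95 and 12.21 at 4 weeks, 12.06 and 12.26 at 15 weeks and 12.33 and 12.36 at 45 weeks, a difference from 15 weeks of 0.19 (SE 0.14) with both 45-week pools highest. This was 0.088 without pool a of 15 weeks and 0.288 without pool b of 15 weeks. The probe of Ndufs1 stayed between 5.44 and 5.71 in all pools, under the filter. It is part of the counts and medians given for the core subunits and for all 34 subunits, and nothing is said of it alone.

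Accessory subunits of the matrix arm were all higher at 45 weeks, 9 of 9, with a median difference from 15 weeks of 0.365, and in 8 both 45-week pools were above both 15-week pools, beside 19.8% of all probes. Ndufa2, a small subunit with a thioredoxin-like fold, lay at 11.91 and 12.20 at 4 weeks, 11.70 and 12.15 at 15 weeks and 12.48 and 12.45 at 45 weeks. Its difference from 15 weeks was 0.54 (SE 0.18), and 0.311 without pool a of 15 weeks. Ndufa7 lay at 11.51 and 11.89 at 4 weeks, 11.60 and 11.84 at 15 weeks and 12.18 and 12.31 at 45 weeks. It differed by 0.52 (SE 0.17) between 45 and 15 weeks and by 0.54 (SE 0.17) between 45 and 4 weeks, with both 45-week pools above all others. The second of these was 0.349 without pool a of 4 weeks.

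Ndufa6 showed the steadiest order with age. This subunit belongs to the LYR family and holds an acyl carrier protein on the matrix arm. Its levels were 11.16 and 11.43 at 4 weeks, 11.54 and 11.63 at 15 weeks and 11.90 and 12.08 at 45 weeks, with no overlap between any of the ages. The difference was 0.29 (SE 0.14) between 15 and 4 weeks, 0.40 (SE 0.14) between 45 and 15 weeks and 0.69 (SE 0.14) between 45 and 4 weeks. The first was 0.15 without pool a of 4 weeks. The last had an adjusted p of 0.271 in limma on pool means, and 0.0286 when all 12 arrays were fitted with a random block for the pool. The remaining matrix accessory subunits had differences between 45 and 15 weeks of 0.04 to 0.43. Among them is Ndufs4, whose loss in mice is a model of Leigh syndrome, at 11.48 and 11.48 at 45 weeks against 11.30 and 11.24 at 15 weeks, a difference of 0.21 (SE 0.12). Among the subunits given with values, Ndufa1, Ndufa3, Ndufa9, Ndufa10, Ndufa13, Ndufb3, Ndufb6, Ndufb9 and Ndufb11 fall outside the rule for naming genes and were chosen after their values were seen.

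Accessory subunits of the membrane arm nearest to the matrix arm had a median difference between 45 and 15 weeks of 0.297, with 7 of 8 higher. Ndufa11, which lies at the contact with complex III in respiratory supercomplexes, was at 10.08 and 10.26 at 4 weeks, 10.06 and 10.29 at 15 weeks and 10.56 and 10.78 at 45 weeks. The difference of 0.49 (SE 0.15) from 15 weeks was matched by one of 0.50 (SE 0.15) from 4 weeks, and both 45-week pools were above all others. Ndufc1, a small membrane subunit, lay at 11.45 and 11.67 at 4 weeks, 11.51 and 11.58 at 15 weeks and 11.94 and 12.07 at 45 weeks. Its difference from 15 weeks was 0.47 (SE 0.13, unadjusted p = 0.00944 in limma). The X-linked Ndufa1 differed less, by 0.27 (SE 0.12), and lay at 12.74 and 12.79 at 45 weeks against 12.46 and 12.53 at 15 weeks. Its pools of high Xist level lay at 12.50 at 4 weeks and 12.79 at 45 weeks, beside 12.36 and 12.74 in pool a of those ages.

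Not every subunit of this region was higher. Ndufa10, a member of the nucleoside kinase family, lay at 11.59 and 11.36 at 4 weeks, 11.62 and 11.35 at 15 weeks and 11.33 and 11.61 at 45 weeks. Its pools overlapped at all ages, with a difference between 45 and 15 weeks of -0.01 (SE 0.16). Ndufa13, also known as GRIM-19, lay at 14.01 and 13.89 at 45 weeks against 13.69 and 14.01 at 15 weeks, a difference of 0.10 (SE 0.14). The pools of the ages overlapped here too.

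Distal membrane arm subunits, which surround the far proton pumps, were higher at 45 weeks in 10 of 10 cases, with a median difference from 15 weeks of 0.367. Ndufb7, a cysteine-rich subunit on the outer face of the inner membrane, had the largest difference of all members. Its levels were 8.69 and 8.63 at 4 weeks, 8.42 and 8.86 at 15 weeks and 9.45 and 9.27 at 45 weeks. Both 45-week pools were above all 4 younger pools, the highest of which was pool b of 15 weeks. The difference was 0.72 (SE 0.17, 1.65-fold) between 45 and 15 weeks, with an unadjusted p of 0.00376 and an adjusted p of 0.606 in limma, and 0.70 (SE 0.17, adjusted p = 0.271) between 45 and 4 weeks. Over the alternatives to the fit the adjusted p for 45 against 15 weeks ran from 0.235 to 0.974.

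Ndufb4 had differences as large as those of the genes above but a wider spread. It lay at 8.68 and 9.57 at 4 weeks, 9.14 and 9.49 at 15 weeks and 9.69 and 10.00 at 45 weeks. The 45-week pools were the highest, with differences of 0.53 (SE 0.29) from 15 weeks and 0.73 (SE 0.29) from 4 weeks. Between 15 and 4 weeks its difference was 0.20 (SE 0.29), and leaving out each pool gave values from -0.249 without pool a of 4 weeks to 0.639 without pool b of that age. The same pools moved the difference between 45 and 4 weeks to 0.283 and 1.17. Ndufb9, which is another LYR protein, differed by 0.48 (SE 0.23) between 45 and 15 weeks, Ndufb6 by 0.37 (SE 0.13) and Ndufb3 by 0.36 (SE 0.12). The X-linked Ndufb11, at 6.41 and 6.80 at 45 weeks against 6.37 and 6.32 at 15 weeks, rested on pool b of 45 weeks, which has the high Xist level.

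**Figure D2:**
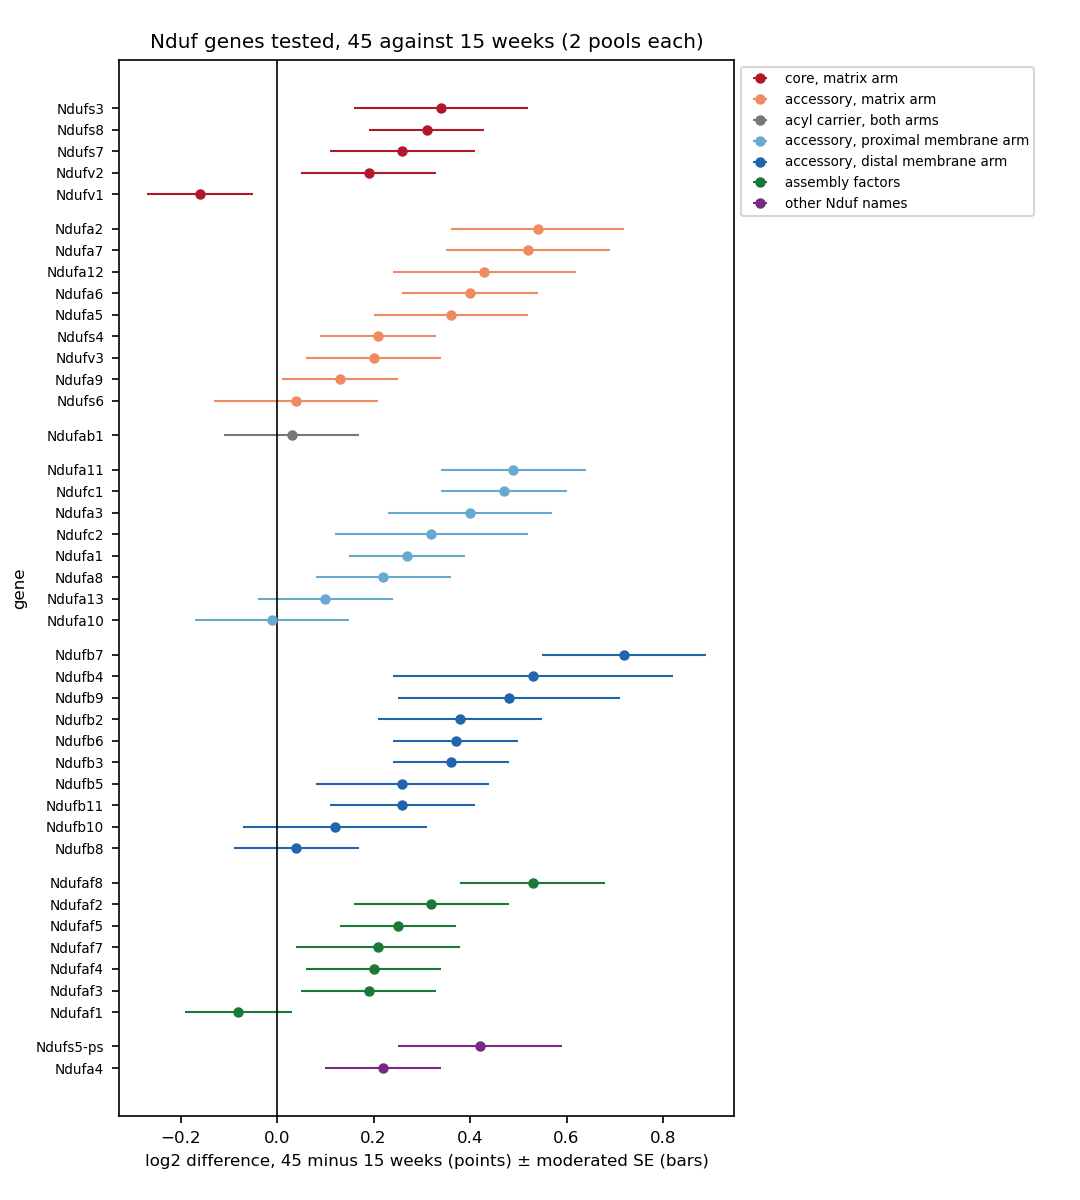
Log2 difference between 45 and 15 weeks (45 minus 15) for the 42 Nduf genes tested, as points with the moderated SE of limma as bars, grouped by place in the enzyme and with 2 pools per age. Ndufb7 is farthest to the right at 0.72, most bars of accessory subunits lie right of 0, and Ndufv1 at -0.16 and Ndufaf1 at -0.08 lie left of it.

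The acyl carrier protein of mitochondrial fatty acid synthesis, Ndufab1, sits in both arms of complex I and has functions outside it. Its brightest probe lay at 12.03 and 11.83 at 45 weeks against 11.79 and 12.01 at 15 weeks, a difference of 0.03 (SE 0.14) with pools that overlap, and leaving out each pool gave values from -0.086 to 0.139, with the sign changed without pool a of either age. Of its 4 probes tested, the lowest difference was -0.03 and the highest 0.57. RefSeq lists a pseudogene of Ndufab1, and what each probe detects was not tested. Ndufs6, a zinc-binding subunit of the matrix arm, was likewise split between its probes. The probe with the higher mean lay at 13.28 and 13.00 at 45 weeks against 12.91 and 13.29 at 15 weeks, a difference of 0.04 (SE 0.17) whose sign also turned without pool a of either age, to -0.152 and -0.105. The other probe differed by 0.44.

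In the distal membrane arm, the brightest probes of Ndufb8 and Ndufb10 had pools of the ages that overlapped. The dimmer probe of Ndufb8 differed by 0.21 between 45 and 15 weeks, with both 45-week pools above both 15-week pools. That of Ndufb10 differed by 0.11, with pools that overlapped. The values that follow are those of the brightest probes. Ndufb8 lay at 12.98 and 12.97 at 45 weeks against 12.87 and 13.00 at 15 weeks, and its difference of 0.04 (SE 0.13) was -0.02 without pool a of 15 weeks. For Ndufb10 the levels were 11.48 and 11.19 at 45 weeks against 10.99 and 11.44 at 15 weeks, a difference of 0.12 that ran from -0.111 without pool a of 15 weeks to 0.345 without pool b of that age.

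Between 15 and 4 weeks no shift of the subunits was seen at this number of pools. Their median difference was -0.019 (0.99-fold), beside -0.002 over all probes, with 15 subunits higher and 19 lower. Both 15-week pools lay above both 4-week pools in 1 subunit, Ndufa6, beside 12.8% of all probes. They lay below in 4, Ndufv1, Ndufab1, Ndufa9 and Ndufb3, beside 13.6%. In limma 0 members were called, as were 0.0% of all probes. At an unadjusted p under 0.05 the count was 0 subunits, beside 1.33% of all probes in either direction. In the fit of 12 arrays with a random block for the pool that count was 1, beside 521 of all 22640 probes. The median was 0.094 without pool b of 4 weeks and -0.109 without pool a of that age. It was 0.038 without pool a of 15 weeks and -0.098 without pool b of that age.

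Other members named for this comparison were spread on both sides of 0. Ndufv3, a small subunit beside the flavin site, lay at 11.66 and 11.96 at 15 weeks against 11.96 and 12.03 at 4 weeks, a difference of -0.18 (SE 0.14) that was -0.029 without pool a of 15 weeks and -0.33 without pool b. Ndufs5-ps lay at 10.99 and 11.02 at 15 weeks against 10.67 and 11.03 at 4 weeks, a difference of 0.16 (SE 0.17) that was -0.024 without pool a of 4 weeks and 0.337 without pool b. The probes of Ndufb10, Ndufb8, Ndufc1, Ndufc2, Ndufs4, Ndufs6 and Ndufv3, like those of Ndufab1 and Ndufaf4, disagreed in sign here, with differences between -0.20 and 0.31.

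Between 45 and 4 weeks the subunits had a median difference of 0.255 (1.19-fold), beside -0.004 over all probes, with 30 higher and 4 lower. The median was 0.40 without pool b of 4 weeks, 0.172 without pool a of that age and 0.386 without pool a of 45 weeks. The 45-week pools were both higher in 20 subunits, beside 22.5% of all probes, and both lower in 1, Ndufv1, beside 22.5%. Again 0 members were called by limma, as were 0.0% of all probes, and 12 subunits were higher and 0 lower at an unadjusted p under 0.05, beside 13.9% of all probes in either direction. Both that count and the count over all probes fell without pool a of 4 weeks, and without pool b of 45 weeks. Each of these leaves 1 pool at an age. Without both pools of high Xist level the median difference was 0.306. The comparisons of 45 with 15 and with 4 weeks share the 45-week pools, so that they are not independent. In the fit of 12 arrays with a random block, 2 members were called, Ndufa6 at 0.691 and Ndufaf8 at 0.668, among 183 probes in all.

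Within an age, pool b tended to lie above pool a. This was so in 29 of 34 subunits at 4 weeks, 25 at 15 weeks and 24 at 45 weeks, with mean gaps of 0.19, 0.11 and 0.11. Across single subunits the median gap between the pools of an age was 0.17, and that between the 2 arrays of a pool 0.10. The mean difference of 0.284 between 45 and 15 weeks is thus larger than the gap between pools of an age in the mean of the subunits. For single subunits that median gap of 0.17 stands beside a median difference of 0.288.

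The 8 Ndufaf genes had a median difference of 0.202 between 45 and 15 weeks with 6 higher, 0.129 between 15 and 4 weeks with 6 higher, and 0.283 between 45 and 4 weeks with 7 higher. Between 15 and 4 weeks the subunits, by contrast, had a median of -0.019. Without pool a of 15 weeks the first of these medians was 0.131. The second was 0.007 without pool b of 15 weeks and 0.08 without pool a of 4 weeks, and the third 0.428 without both pools of high Xist level. Their mean level was 8.03 and 8.12 at 4 weeks, 8.08 and 8.23 at 15 weeks and 8.36 and 8.33 at 45 weeks, so that both 45-week pools were again the highest.

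Ndufaf8 and Ndufaf5 work together on the core subunit Ndufs7, which Ndufaf5 hydroxylates. Ndufaf8 lay at 7.81 and 8.05 at 4 weeks, 7.90 and 8.24 at 15 weeks and 8.58 and 8.61 at 45 weeks. It had the largest difference among the assembly factors, 0.53 (SE 0.15, unadjusted p = 0.0116 in limma) from 15 weeks and 0.67 (SE 0.15) from 4 weeks. Its partner Ndufaf5 lay at 8.83 and 9.01 at 4 weeks, 8.84 and 8.92 at 15 weeks and 9.14 and 9.13 at 45 weeks, a difference from 15 weeks of 0.25 (SE 0.12). In both genes the 45-week pools were above all 4 younger pools.

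Ndufaf2, a relative of the subunit Ndufa12 that acts late in assembly, lay at 10.90 and 10.71 at 45 weeks against 10.29 and 10.68 at 15 weeks, a difference of 0.32 (SE 0.16). This was 0.121 without pool a of 15 weeks and 0.515 without pool b of that age. Ndufaf3 and Ndufaf4 act on the ubiquinone module. Ndufaf3 lay at 6.94 and 7.22 at 4 weeks, 7.27 and 7.37 at 15 weeks and 7.59 and 7.43 at 45 weeks. Its ages did not overlap, with differences of 0.24 (SE 0.14) between 15 and 4 weeks and 0.19 (SE 0.14) between 45 and 15 weeks. The first was 0.104 without pool a of 4 weeks and 0.38 without pool b of 4 weeks, and the second 0.111 without pool a of 45 weeks. Ndufaf4 lay at 9.15 and 8.85 at 45 weeks against 8.82 and 8.79 at 15 weeks, a difference of 0.20 (SE 0.14), while its second probe differed by -0.03. Without pool a of 45 weeks the Ndufaf4 difference was 0.048, and without pool b of that age 0.346.

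The other assembly factors showed no such order. Ndufaf1, a part of the complex that assembles the membrane arm, lay at 9.30 and 9.22 at 45 weeks against 9.35 and 9.33 at 15 weeks, a difference of -0.08 (SE 0.11) that was -0.042 without pool b of 45 weeks. Ndufaf7, a methyltransferase of complex I assembly, lay at 7.05 and 6.96 at 4 weeks, 6.72 and 6.92 at 15 weeks and 6.82 and 7.24 at 45 weeks. Its difference of 0.21 (SE 0.17) from 15 weeks was -0.005 without pool b of 45 weeks, 0.419 without pool a of 45 weeks and 0.105 without pool a of 15 weeks. Ndufaf6, an early factor, stayed between 5.36 and 5.57, under the filter. Ndufa4 lay at 13.07 and 13.25 at 45 weeks against 12.99 and 12.90 at 15 weeks, a difference of 0.22 (SE 0.12) that was 0.132 without pool b of 45 weeks. Ndufs5-ps lay at 11.25 and 11.60 against 10.99 and 11.02, a difference of 0.42 (SE 0.17). As a near copy of Ndufs5, its probe may also read that gene, and the value is uncertain in this respect.

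Of the complex I assembly genes with other names, 12 had a probe, and they were spread on both sides of 0. Their median difference was -0.018 between 45 and 15 weeks, with 4 higher and 8 lower, and the mean difference was 0.065. Tmem126a lay at 9.43 and 9.44 at 45 weeks against 8.91 and 9.19 at 15 weeks, a difference of 0.39 (SE 0.13), and the oxidoreductase gene Foxred1 differed by 0.40 (SE 0.17). These, with Tmem126b at 0.21 (SE 0.13) and Dmac2 at 0.22 (SE 0.14), were the 4 with both 45-week pools higher, beside 19.8% of all probes, and in 0 genes were both lower, beside 19.9%. Ecsit and Acad9 differed by -0.14 (SE 0.16) and -0.10 (SE 0.19), with pools that overlapped. Of the 11 tested, 0 were called.

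Mitochondrial DNA encodes further core subunits of the membrane arm, and probes for 5 of them were present. No shift like that of the nuclear subunits was seen in these, but their spread was too wide to resolve one of that size. The SD of their pool means within an age was 0.269. Their mean level was 9.85 and 9.78 at 4 weeks, 10.03 and 9.47 at 15 weeks and 9.39 and 9.73 at 45 weeks. The 15-week pools overlapped those of both other ages, while both 45-week pools lay below both 4-week pools. The median difference was -0.152 between 45 and 15 weeks with 1 of 5 higher, and -0.182 between 45 and 4 weeks with 0 of 5 higher. The 1 higher between 45 and 15 weeks was ND6, which stayed between 5.71 and 5.75, under the filter. Between 45 and 15 weeks ND1 differed by -0.09 (SE 0.15), ND4 by -0.15 (SE 0.20), ND5 by -0.32 (SE 0.28) and ND4L by -0.40 (SE 0.74). ND5 lay at 7.77 and 6.91 at 4 weeks, 6.90 and 6.93 at 15 weeks and 6.82 and 6.38 at 45 weeks, a difference of -0.74 (SE 0.28, adjusted p = 0.328 in limma) between 45 and 4 weeks. The probe of ND4L ran from 7.24 to 9.54 over the pools, with neither age group apart. Whether the arrays' labelling reads mitochondrial and nuclear transcripts alike was not tested.

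Subunits of the other respiratory complexes and of ATP synthase also lay mostly higher at 45 weeks. Of 38 genes of complexes II to V, 33 were higher at 45 than at 15 weeks, with a median difference of 0.240, and in 23 both 45-week pools were higher, beside 19.8% of all probes. The mean level of these genes was 11.41 and 11.54 at 45 weeks against 11.19 and 11.30 at 15 weeks. By complex the median difference was 0.079 for complex II, 0.182 for complex III, 0.265 for complex IV and 0.255 for complex V, and 0 were called. The mitochondrial ribosomal proteins had a median difference of 0.255 with 67 of 76 higher, and the cytosolic ribosomal proteins one of 0.082 with 47 of 57 higher. No test of a difference between these groups and complex I was made.

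**Figure D3:**
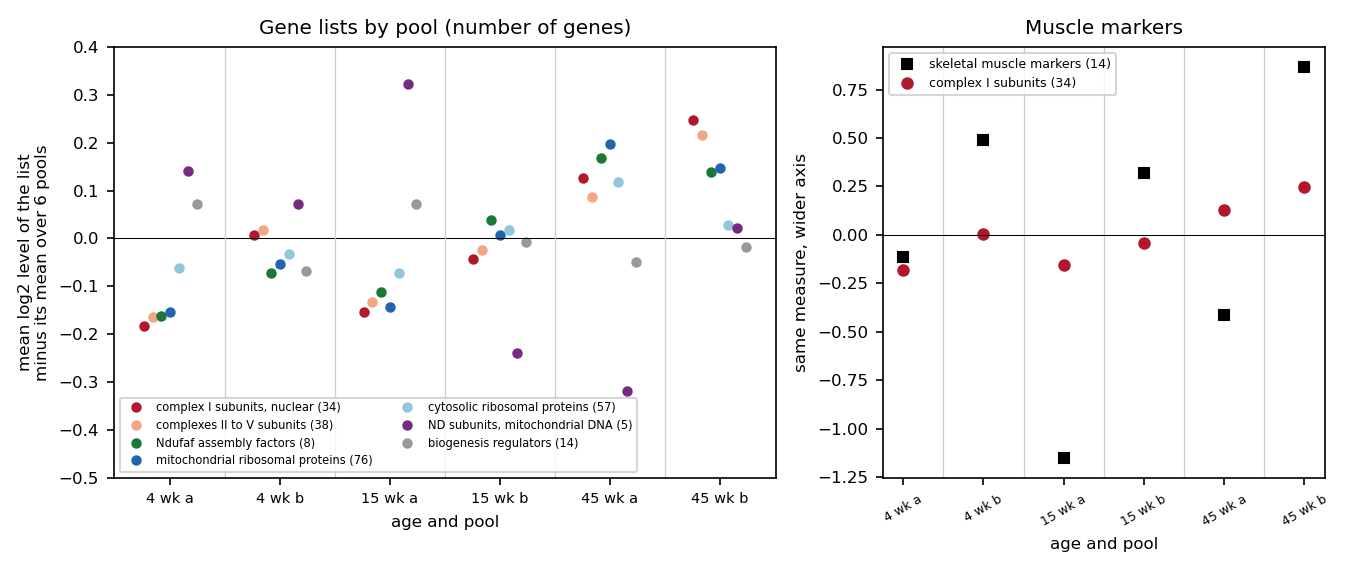
Mean log2 level of each gene group in each pool minus the group's mean over the 6 pools, by age and pool, with the number of genes in brackets; the right panel sets the skeletal muscle markers beside the complex I subunits on a wider axis. Both 45-week pools are highest for the complex I subunits, complexes II to V, assembly factors and mitochondrial ribosomal proteins, while the mitochondrially encoded ND subunits and the muscle markers follow other orders.

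Known regulators of mitochondrial biogenesis did not share the shift of the subunits. Of 14 such genes 3 were higher at 45 than at 15 weeks, with a median difference of -0.060, and 0 of the 13 tested were called. Esrra, which encodes an estrogen-related receptor, lay at 9.70 and 9.59 at 45 weeks against 9.37 and 9.46 at 15 weeks, a difference of 0.23 (SE 0.13). The coactivator genes Ppargc1a and Ppargc1b differed by -0.15 (SE 0.29) and -0.37 (SE 0.21), and Nrf1 by -0.13 (SE 0.21). Tfam, a packaging and transcription factor of mitochondrial DNA, differed by 0.08 (SE 0.12).

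Because the samples are whole tissue, more transcript per cell cannot be told apart from more cells of a type rich in mitochondria. Skeletal muscle, which is rich in complex I, left a signal that varied between pools. The mean of 14 muscle markers was 9.98 and 10.58 at 4 weeks, 8.94 and 10.41 at 15 weeks and 9.68 and 10.96 at 45 weeks. It was higher in pool b than in pool a at every age, like the subunits, and its correlation with the subunit mean over the 6 pools was 0.59. All 14 were higher at 45 than at 15 weeks, with a median of 0.769, but in 1 both 45-week pools were above both 15-week pools, beside 19.8% of all probes. The 6 markers of cardiac and slow muscle, of which 4 passed the filter, averaged 6.37 and 6.51 at 4 weeks, 6.30 and 6.88 at 15 weeks and 6.78 and 6.83 at 45 weeks. All 6 were higher at 45 than at 15 weeks, with a median of 0.240, and the correlation of their mean with the subunit mean over the 6 pools was 0.76. Osteoblast markers averaged 10.19 and 9.67 at 4 weeks, 9.74 and 11.01 at 15 weeks and 10.78 and 10.85 at 45 weeks, with a correlation of 0.56. All 6 of them were higher at 45 than at 15 weeks, with a median of 0.344 and 0 with both pools above, and all 6 had both 45-week pools above both 4-week pools, with a median of 0.808, beside 22.5% of all probes. In pool a of 45 weeks the skeletal muscle markers, at 9.68, lay below both 4-week pools. Its cardiac and slow muscle markers, at 6.78, its osteoblast markers, at 10.78, and its subunit mean, at 11.23, lay above both. Of 4 pituitary hormone genes and Pomc, all 5 had both 45-week pools above both 15-week pools, beside 19.8% of all probes. Their mean was 8.59 and 9.07 at 45 weeks against 5.64 and 6.02 at 15 weeks, with a correlation of 0.89. Differences were largest for Prl, at 6.36 (SE 0.97), and Gh, at 5.26 (SE 0.46), and smallest for Pomc, at 0.58 (SE 0.25). The part of muscle, bone or pituitary tissue in the subunit levels was not tested. The mean of the 12 cochlea markers was 9.47 and 9.55 at 45 weeks against 9.38 and 9.46 at 15 weeks. Between these ages the median difference was 0.045 for 6 stria vascularis markers, -0.001 for 8 hair cell markers and -0.081 for 8 neuron markers. It was 0.081 for 4 macrophage markers and 0.004 for 3 erythroid markers. The correlations of their means with the subunit mean were 0.34, -0.02, -0.29, 0.18 and -0.39 in this order. The part of these cell types was not tested either.

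Many subunits followed each other closely across pools, and others did not. The correlation of a subunit with the mean of the other 33 over the 6 pools reached 0.99 for Ndufa7 and 0.98 for Ndufa11, Ndufa3 and Ndufc1. It was -0.83 for Ndufv1, -0.23 for Ndufa10, -0.12 for Ndufab1 and 0.02 for Ndufs6. For Ndufa13 it was 0.30, for Ndufb10 0.35, for Ndufc2 0.36, for Ndufa9 0.47, for Ndufv3 0.50 and for Ndufb8 0.59. These values describe 6 pools read on the same arrays and rest on the gap between 45 weeks and the younger ages as well as on gaps between pools. Outside the Nduf genes, the profiles most like the subunit mean over the 6 pools were those of 0610010K14Rik and Zswim7, each with r = 0.998, and Krt10, with r = 0.997. Krt10, a keratin gene, lay at 9.67 and 9.90 at 45 weeks against 9.19 and 9.37 at 15 weeks.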

How the data were processed

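Total RNA of cochlear pools was labelled as biotinylated cRNA and read on Illumina mouse BeadChips. The authors deposited log2 values, normalized between arrays: the sorted columns of all 12 arrays were identical (largest difference 0), as after quantile normalization, so that a shift of most transcripts would not be seen. The sources used here name neither background correction nor software. A second table, with 24 columns that match no sample label, was not used, so that detection calls and a fresh normalization were not made. No depth is given for arrays, and precision is limited by how many pools there are.

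Probes were named from the platform annotation (1 symbol for 34885 probes, several for 18, none for 10378, the last kinds unnamed). All 44 Nduf genes were matched to RefSeq. The 2 arrays of a pool were averaged. Probes with a mean above the median were fitted in 1 model over 3 ages with limma 3.58.1 in R 4.3.3 (3 residual and 3.84 prior degrees of freedom), with Benjamini-Hochberg adjustment over all 22640 probes, and the fit was tested on simulated data. SE is the moderated standard error. Named with values were core subunits, assembly factors, Ndufa4, the 6 largest differences and 3 smallest p-values per comparison, genes whose probes disagree in sign, genes under the filter and the 3 genes most like the subunit mean. The members and gene lists were chosen with earlier results of these data known. Gene lists are described by counts and medians, without a test. Alternatives were other filters, each array alone, 12 arrays with a random block, a block for the replicate letter, leaving out each pool, fitting the 2 ages alone, the mean over probes, and a trended robust variance. Leaving out the pools of high Xist level was added after the data were seen. Pool letters were not treated as pairs in the main fit, and whether they mark a shared handling was not tested. Over all probes tested, the correlation of b minus a gaps was -0.11 between 4 and 15 weeks, 0.18 between 4 and 45 weeks and -0.39 between 15 and 45 weeks.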

Additional observations from a re-analysis of the deposited data

Results flagged for a closer look

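Within the 4 arrays of an age, 7 of 132 sets of values of a member held an array that stood apart from the other 3 by Dixon's criterion. The criterion's rate of about 1 in 20 holds for 4 independent values. These are 2 arrays of each of 2 pools, so that the number expected by chance is not known here. At 45 weeks, Ndufab1 lay at 12.25 on array 2 of pool a and at 11.80 to 11.83 on the others, Ndufa8 at 11.49 on array 1 of pool a and at 11.64 to 11.65 on the others, and Ndufa2 at 12.51 on array 2 of pool a and at 12.45 on the others. At 15 weeks, Ndufa11 lay at 9.87 on array 2 of pool a and at 10.25 to 10.29 on the others, Ndufb5 at 10.47 on array 1 of pool a and at 10.73 to 10.78 on the others, and Ndufc1 at 11.64 on array 2 of pool b and at 11.50 to 11.51 on the others. At 4 weeks, Ndufb10 lay at 11.50 on array 2 of pool b and at 11.19 to 11.22 on the others. For Ndufa11 and Ndufc1 every 45-week array was still above every 15-week array. For Ndufab1 the array that stood apart was the 1 that placed pool a of 45 weeks above pool b.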

How the results depend on the processing

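With 2 pools per age, single differences near 0.3 were not resolved. The planned fresh normalization of the second table was not run, since its columns match no sample. Medians of the subunits ran from 0.211 to 0.394 (45 against 15 weeks), -0.109 to 0.094 (15 against 4 weeks) and 0.172 to 0.40 (45 against 4 weeks) when each pool was left out, and the second was 0.094 without the pools of high Xist level. For assembly factors the leave-out ranges were 0.131 to 0.268 for 45 against 15 weeks, 0.007 to 0.172 for 15 against 4 weeks and 0.21 to 0.36 for 45 against 4 weeks. Averaging the probes of a gene gave 0.136, 0.038 and 0.201 for these comparisons. The last was also 0.393 with the stricter filter, 0.19 and 0.39 with array 1 or 2 alone, and 0.428 without the pools of high Xist level. Subunits with both pools higher at 15 than at 4 weeks numbered 3 with array 2 alone, 2 with probes averaged, 19 without the pools of high Xist level, and 1 to 19 with each pool left out, where fewer pools have to be apart. With 12 arrays and a random block, 2 members were called between 45 and 4 weeks, and in the other fits 0. Over all probes that fit called 6 (45 against 15 weeks), 2 (15 against 4) and 183 (45 against 4), and leaving out pool b of 45 weeks called 12 in either comparison of 45 weeks. Subunits at an unadjusted p under 0.05 numbered 6 with array 2 alone and 16 with the random block for 45 against 15 weeks (10 as reported), and 7 with array 1 alone for 45 against 4 weeks (12 as reported). With the replicate block 0 members were called in any comparison. The 25 subunits with both pools higher at 45 than at 15 weeks are counted without a fit, so that the block could not change that number. Of 530 values of 38 single-gene results, 14 were reversed, in 7 results. For 45 against 15 weeks these were, with array 2 alone, Ndufab1 (-0.113), Ndufb10 (-0.013) and Ndufs6 (-0.012). Leaving out each pool gave ranges for 45 against 15 weeks of -0.086 to 0.139 for Ndufab1, -0.005 to 0.419 for Ndufaf7, -0.111 to 0.345 for Ndufb10, -0.022 to 0.107 for Ndufb8 and -0.152 to 0.228 for Ndufs6. For 15 against 4 weeks they were -0.249 to 0.639 for Ndufb4 and -0.024 to 0.337 for Ndufs5-ps. Ndufaf7 was -0.005 without the pools of high Xist level. The causes were not tested.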

Other observations

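Among the mitochondrial ribosomal proteins 21 of the 72 tested were higher at 45 than at 15 weeks at an unadjusted p under 0.05 and 0 lower, beside 8.15% of all probes in either direction. In 49 of 76 both 45-week pools were higher, beside 19.8% of all probes. Mrps21, a protein of the small mitochondrial ribosomal subunit, lay at 10.82 and 10.84 at 45 weeks against 10.03 and 10.30 at 15 weeks, a difference of 0.67 (SE 0.14). Between 45 and 4 weeks it differed by 0.76 (SE 0.14, adjusted p = 0.271 in limma), with both 45-week pools above all younger pools. In complex V, Atp5b, the catalytic beta subunit, lay lower like Ndufv1, at 13.84 and 13.91 at 45 weeks against 14.13 and 14.08 at 15 weeks, a difference of -0.23 (SE 0.12). Mrps21 and Atp5b were named after their values were seen.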
